A study of Rattus norvegicus with 6 samples.

Results

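The genes described here form the part of the vitamin A pathway that takes up, stores, carries, senses and clears retinoids in the testis. The set was given as a list of 9 symbols: Stra6 and Lrat for uptake and storage, Rdh10 for oxidation, Crabp1 and Crabp2 for intracellular binding, Cyp26b1 for clearance, and Rara, Rarg and Rxrb for the nuclear receptors. Each symbol was looked up in the deposited table of 35291 genes and assembled loci, where the 9 symbols matched 10 rows because Crabp2 labels 2 of them. RNA-Seq was performed on testicular tissue of 3 rats with STZ-induced diabetes and 3 normal rats, all of the Sprague-Dawley strain, an outbred stock. Streptozotocin (STZ) destroys the pancreatic beta cells, and the diabetic testes were taken after 8 weeks of diabetes. The methods of the study describe a period of high-fat feeding before the single STZ injection and an injection of citrate buffer for the controls. They do not state the diet of the controls, so that diet and diabetes cannot be told apart here. The model was described as type 2 diabetes, and only rats with persistently high blood glucose entered the diabetic group. The labels name no age.

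Vitamin A reaches the seminiferous tubule as retinol, and STRA6 is a membrane receptor that lets retinol enter cells from its plasma carrier. LRAT esterifies retinol for storage, RDH10 oxidises it to retinaldehyde, and retinaldehyde dehydrogenases turn that into retinoic acid. Inside the cell retinoic acid is held by CRABP1 and CRABP2, is broken down by CYP26 enzymes such as CYP26B1, and acts through heterodimers of a retinoic acid receptor (RAR) and a retinoid X receptor (RXR). In the testis, retinoic acid drives the differentiation of spermatogonia and the entry into meiosis, and vitamin A deficiency stops spermatogenesis.

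The promoter windows of 3 genes are shown. Of the set, they cover the uptake gene nearest to a difference and the most abundant clearance gene. The other window, from outside the set, belongs to a clearance gene known as a direct target of retinoic acid. Each window runs from 250 bases before to 50 bases after the annotated start of the gene, on the strand of the gene, and was taken from RefSeq (GRCr8). The build behind the deposited values is not given in the sources used here, so the windows were matched by symbol only. Windows were found for 8 of the 9 symbols, with 2 for Rarg. The search looked for receptor half-sites with the letters AGGTCA, the letters AGTTCA, the letters GGGTCA or the letters GGTTCA on either strand, and for direct repeats of these with a spacer of 1, 2 or 5 bases. A repeat also counts as 2 half-sites. Capitals mark a half-site in Stra6 (chr8:67444507-67444806, plus strand) and a whole repeat with a spacer of 5 bases in Cyp26a1 (chr1:244883572-244883871, plus strand), while the window of Cyp26b1 (chr4:118616127-118616426, minus strand) held no match and has no capitals.
Stra6: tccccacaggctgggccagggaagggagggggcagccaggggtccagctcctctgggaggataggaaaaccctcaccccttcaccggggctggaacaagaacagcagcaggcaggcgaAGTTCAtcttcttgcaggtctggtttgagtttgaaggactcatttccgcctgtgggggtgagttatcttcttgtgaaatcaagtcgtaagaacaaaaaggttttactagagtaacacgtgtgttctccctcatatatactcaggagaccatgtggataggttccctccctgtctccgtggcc
Cyp26b1: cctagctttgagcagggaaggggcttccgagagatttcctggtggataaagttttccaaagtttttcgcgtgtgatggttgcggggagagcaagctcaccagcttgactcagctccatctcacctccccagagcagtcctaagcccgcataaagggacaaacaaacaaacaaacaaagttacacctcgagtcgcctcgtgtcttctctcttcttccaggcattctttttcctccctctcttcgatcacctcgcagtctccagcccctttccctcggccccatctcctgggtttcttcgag
Cyp26a1: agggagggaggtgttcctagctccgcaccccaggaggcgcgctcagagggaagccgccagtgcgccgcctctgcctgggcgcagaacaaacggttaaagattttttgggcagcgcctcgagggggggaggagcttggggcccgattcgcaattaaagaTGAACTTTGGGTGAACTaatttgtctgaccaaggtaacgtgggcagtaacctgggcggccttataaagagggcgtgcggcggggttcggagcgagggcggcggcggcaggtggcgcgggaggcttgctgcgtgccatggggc
A half-site was present in 3 of the 9 windows of the set, those of Stra6, Rara and one of the windows of Rarg, against 44.4% of all 33469 windows. No window of the set held a direct repeat with a spacer of 5 bases, which 0.382% of all windows held. The repeats with a spacer of 1 or 2 bases were likewise found in 0 of the 9 windows, and in 0.233% and 0.170% of all windows. These matches describe letters in a short window and not binding.

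The values are FPKM (fragments for each kilobase of transcript, scaled to library size), which the authors calculated per gene. Since FPKM are divided by length, levels of different genes can be set side by side. Read numbers are unknown here. Relative depths were read from the commonest ratio to diabetic replicate 1 among genes with less than 1 FPKM, which only 36 to 48 genes shared. These depths were between 0.966 and 1.09 in the diabetic testes and between 0.893 and 1.02 in the normal testes. Diabetic and normal testes were compared by limma, fitted to log2(FPKM + 0.1) of the 20338 genes that averaged 0.5 FPKM or more, and fold changes on this scale understate those of low genes. Of the 10 rows of the set, 7 passed that minimum. Rarg and both rows of Crabp2 lay below it, and their values come from a fit of the same kind without a minimum. For a single gene the exact permutation test of 3 rats against 3 cannot give a p-value below 0.1, so that no single gene of the set could pass 0.05 by that test. The study speaks of animals in each group, but the labels do not say how the samples were drawn, and the p-values measure only the spread between these samples.

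No gene of the set passed the test between diabetic and normal testes, and Stra6 came nearest. None of the 7 rows tested reached a nominal p-value (not adjusted for the number of genes) below 0.05 in limma, a level at which 4.99% of all genes tested were lower and 2.47% were higher in the diabetic testes. A fold change of 1 or more in size on the log2 scale together with a nominal p-value below 0.05, the form of criterion used in the study, was met by 0 of the 7 rows and by 1.24% of all genes. An adjusted p-value below 0.05 was also reached by 0 rows of the set and by 0.0344% of all genes. The log2 fold changes of the 7 rows lay between -0.49 and 0.10 with a median of -0.059, against a median of -0.021 over all genes tested. Of the 7 rows, 1 had groups apart from each other, Stra6, which was lower in the diabetic testes. Such a gap was present in 8.42% of all genes tested with the diabetic testes lower and in 4.56% with the diabetic testes higher.

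**Figure D1:**
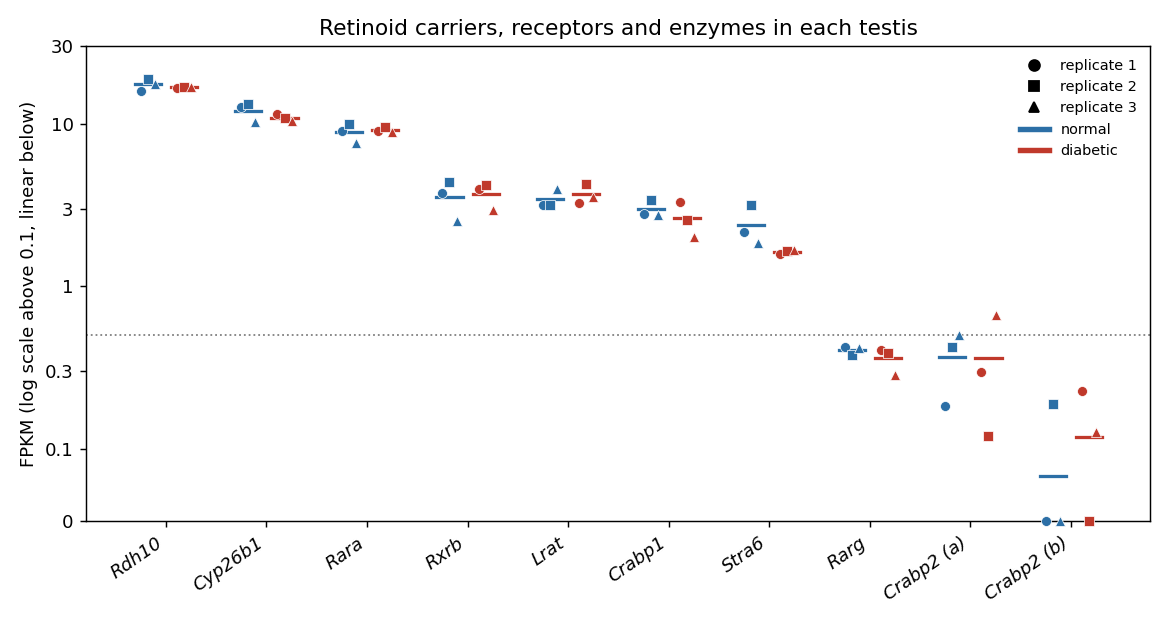
FPKM of the 9 genes (10 rows) in each of the 6 testes, on an axis that is logarithmic above 0.1 and linear below; symbols mark the replicate, short lines the group means, and the dotted line the minimum mean of 0.5 FPKM for testing. Crabp2 (a) is ENSRNOG00000022101 and Crabp2 (b) is ENSRNOG00000048421. Rdh10 and Cyp26b1 have the highest levels, and Stra6 is the only tested gene of the set whose groups are apart, from 1.57 to 1.67 FPKM in the diabetic and from 1.83 to 3.15 FPKM in the normal testes.

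In order of level over the 6 rats, Rdh10 came first at a mean of 17.1 FPKM, followed by Cyp26b1 at 11.4 FPKM and Rara at 8.99 FPKM. The ranges of these 3 genes did not overlap with that of the next gene in the order. Rxrb, Lrat and Crabp1 followed at 3.62, 3.55 and 2.79 FPKM, with overlapping ranges, and Rxrb was above Lrat in 3 of the 6 rats only. Stra6 had a mean of 2.01 FPKM and was below Crabp1 in every rat, although the ranges over rats overlapped. Rarg, at 0.384 FPKM, and the main row of Crabp2, at 0.365 FPKM, could not be ordered, since each was above the other in 3 rats. Rdh10 was above 76.6% of all genes tested and Stra6 above 28.8%.

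Stra6 (ENSRNOG00000008312) encodes the retinol uptake receptor and had the largest log2 fold change in size among the 7 tested rows of the set. In FPKM, the means of Cyp26b1 lay further apart. The level of Stra6 was 1.57, 1.65 and 1.67 FPKM in the diabetic testes and 2.16, 3.15 and 1.83 FPKM in the normal testes. Every diabetic rat lay below every normal rat, but the gap between the highest diabetic and the lowest normal rat was small beside the spread of the normal testes. The diabetic testes averaged 1.63 ± 0.0516 FPKM and the normal testes 2.38 ± 0.687 FPKM (SD, n = 3 each), a difference of the means of -31.6%. The log2 fold change was -0.49 (SE 0.21), and its 95% interval ran from -0.99 to 0.017. In limma the nominal p-value was 0.0564 and the adjusted p-value was 0.681, and the exact permutation test gave p = 0.1. Normal replicate 2 decided much of the size, since without it the log2 fold change of Stra6 was -0.27 with a nominal p-value from limma of 0.181. Without normal replicate 3, the lowest normal rat, the same values were -0.65 and 0.0202. In whole testis, fewer cells of a type and less RNA per cell cannot be told apart.

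Lrat (ENSRNOG00000025608), which encodes the enzyme that esterifies retinol, was at 3.27, 4.24 and 3.53 FPKM under diabetes and 3.15, 3.16 and 3.97 FPKM in the normal testes. The groups overlapped, with the highest rat in the diabetic group and the 2 lowest in the normal group. Lrat had a log2 fold change of 0.10 (SE 0.15; limma, adjusted p = 0.933). The 95% interval of the fold ran from 0.836 to 1.37. Stra6 and Lrat, the genes of uptake and storage, thus had estimates of opposite sign, and neither passed the test.

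Rdh10 (ENSRNOG00000006681) encodes the retinol dehydrogenase that makes retinaldehyde, the first step towards retinoic acid. It was measured at 16.6, 16.7 and 16.7 FPKM in the diabetic testes and at 15.8, 18.9 and 17.5 FPKM in the normal testes. The diabetic testes lay within 0.142 FPKM of each other and inside the range of the normal testes. The log2 fold change of Rdh10 was -0.059 (SE 0.081), and its fold had the narrowest 95% interval of the set, from 0.841 to 1.10 (adjusted p = 0.926 from limma).

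Crabp1 (ENSRNOG00000023633) encodes a cytosolic protein that binds retinoic acid and is known from spermatogonia. Its values were 3.29, 2.54 and 2.01 FPKM under diabetes and 2.77, 3.40 and 2.74 FPKM in the normal testes. The 2 lowest rats were diabetic, but diabetic replicate 1 was the second highest of all. Crabp1 had a log2 fold change of -0.20 (SE 0.20; limma, adjusted p = 0.898), and the interval of its fold, from 0.629 to 1.21, leaves room for a moderate difference. Without diabetic replicate 3 the log2 fold change was -0.030, and without diabetic replicate 1 it was -0.37.

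Crabp2 encodes the related carrier that passes retinoic acid to the receptors. The row ENSRNOG00000022101 was at 0.296, 0.119 and 0.667 FPKM under diabetes and 0.183, 0.422 and 0.502 FPKM in the normal testes. Both the highest and the lowest rat were diabetic. The row ENSRNOG00000048421, with the same symbol and description, was at 0.226, 0 and 0.127 FPKM in the diabetic testes and was listed at 0 FPKM in 2 normal testes and at 0.188 FPKM in normal replicate 2. How fragments were shared between these rows is not given in the sources used here, so each row is uncertain. For the first row the log2 fold change was -0.14 with a 95% interval of the fold from 0.378 to 2.18 (adjusted p = 0.973 from limma without a minimum). For the other row the estimate had the opposite sign, at 0.45, with an interval of the fold from 0.522 to 3.59 (adjusted p = 0.903 from the same fit). With the rows summed the log2 fold change was 0.0039. At this level a 2-fold difference in either direction was not detectable for Crabp2.

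Cyp26b1 (ENSRNOG00000015076), a cytochrome P450 that breaks down retinoic acid, was at 11.4, 10.8 and 10.4 FPKM under diabetes and 12.6, 13.1 and 10.2 FPKM in the normal testes. Normal replicates 1 and 2 were above every diabetic rat, while normal replicate 3 was the lowest of the 6. The log2 fold change of Cyp26b1 was -0.13 (SE 0.11; limma, adjusted p = 0.859), and the 95% interval of its fold ran from 0.763 to 1.09. Without normal replicate 3 the log2 fold change was -0.24 with a nominal p-value of 0.0281 and an adjusted p-value of 0.632 from limma. Without normal replicate 2 it was -0.067 with a nominal p-value from limma of 0.591, and without normal replicate 1 it was -0.093.

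Rara (ENSRNOG00000009972) encodes retinoic acid receptor alpha, which is known from Sertoli cells, the nursing cells of the tubule. Its values were 9.01, 9.55 and 8.89 FPKM under diabetes and 9.01, 9.88 and 7.59 FPKM in the normal testes. The diabetic testes lay inside the normal range, and the log2 fold change of Rara was 0.059 (SE 0.11; limma, adjusted p = 0.948). The interval of its fold, from 0.869 to 1.25, was among the narrower ones of the set.

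Rarg (ENSRNOG00000012499), the gene of retinoic acid receptor gamma, a receptor known from spermatogonia, was at 0.408, 0.390 and 0.286 FPKM in the diabetic testes. In the normal testes it was at 0.424, 0.380 and 0.419 FPKM, and diabetic replicate 3 was the lowest of all. The log2 fold change of Rarg was -0.15 (adjusted p = 0.932 from limma without a minimum), with an interval of the fold from 0.582 to 1.40.

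Rxrb (ENSRNOG00000000464) encodes a partner of the RARs that is needed in Sertoli cells. Its values were 3.94, 4.20 and 2.94 FPKM under diabetes and 3.76, 4.35 and 2.53 FPKM in the normal testes. In both groups replicate 2 was the highest and replicate 3 the lowest. Rxrb had a log2 fold change of 0.076 (SE 0.23; limma, adjusted p = 0.971), and the interval of its fold ran from 0.726 to 1.53.

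The rats of a group differed from each other in a way that several genes of the set shared. Normal replicate 2 was the highest of the 6 rats for 6 of the 7 rows tested, all except Lrat, while it was the highest for 21.0% of all genes tested. Normal replicate 3 was the lowest for 3 rows, Cyp26b1, Rara and Rxrb, against 18.8% of all genes, and it also had the lowest relative depth, 0.893. The coefficient of variation over the 6 rats ran from 6.23% for Rdh10 to 29.9% for Stra6 among the tested rows, and it was 56.3% for the first row of Crabp2.

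Within families, the composition by isotype was also compared. Rara held between 93.1% and 95.2% of the summed FPKM of the RAR genes in all 6 rats, with means of 94.9 ± 0.257% in the diabetic and 93.8 ± 1.17% in the normal testes (SD, n = 3 each). Rarg held between 3.06% and 5.15%, and Rarb held the rest. Rxrb held 75.6 ± 2.95% of the RXR genes in the diabetic and 73.1 ± 1.37% in the normal testes (SD, n = 3 each), ahead of Rxra, while Rxrg held at most 3.14%. These shares overlapped between the groups (exact permutation test, two-sided, p = 0.4 for Rara and p = 0.3 for Rxrb). Crabp1 held between 71.7% and 95.5% of the CRABP genes, with the lowest share in diabetic replicate 3 (exact permutation test, p = 0.9).

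**Figure D2:**
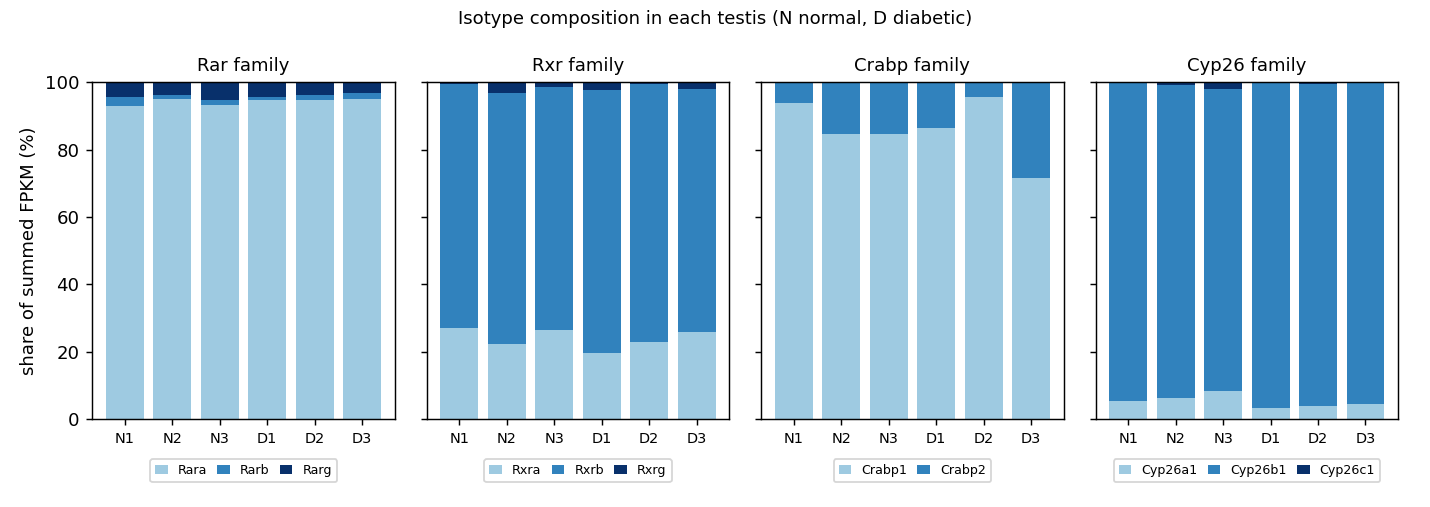
Share of each isotype in the summed FPKM of its family (percent, stacked bars) in normal testes N1 to N3 and diabetic testes D1 to D3. Rara, Rxrb, Crabp1 and Cyp26b1 hold most of their families in every rat; the share of Cyp26b1 lies between 95.4% and 96.4% in the diabetic testes and between 89.7% and 94.5% in the normal testes.

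Cyp26b1 held the bulk of the CYP26 genes, and here the groups were apart. Its share was 96.4%, 95.6% and 95.4% in the diabetic testes and 94.5%, 93.0% and 89.7% in the normal testes. Every diabetic rat was above every normal rat, by a mean of 3.43 percentage points (exact permutation test, p = 0.1, as low as 6 rats can give). Of the 11 isotype shares compared, those of Cyp26b1 and Cyp26a1, which depend on each other, did not overlap, and after Benjamini-Hochberg adjustment over the 11 shares the p-value was 0.55 for both. Cyp26a1, the other of these genes, encodes a clearance enzyme that is induced by retinoic acid. Its level was 0.399, 0.449 and 0.504 FPKM under diabetes. In the normal testes Cyp26a1 was at 0.707, 0.893 and 0.949 FPKM, so that all diabetic testes were lower. The diabetic mean of Cyp26a1, 0.451 FPKM, lay below the minimum of 0.5 FPKM, so the gene was tested only through its level in the normal testes. Its log2 fold change was -0.78 (SE 0.27; limma, adjusted p = 0.607). Cyp26a1 is the gene whose window, printed above, holds the repeat in capitals. The window of Rarb, also listed as responding to retinoic acid, held a repeat with a spacer of 5 bases as well. Rarb lay below the minimum, and its groups overlapped (log2 fold change -0.18 in the fit without a minimum). The window of Dhrs3, a gene of the same list that was lower in the diabetic testes, held no match. Whether the repeats bear on these levels was not tested. The summed level of the CYP26 genes, which follows Cyp26b1, was 11.3 ± 0.455 FPKM under diabetes and 13.0 ± 1.38 FPKM in the normal testes (SD, n = 3 each), and the groups overlapped.

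The other genes of retinoid handling were taken from a list of 59 symbols, of which 53 were found in the table and 38 passed the minimum. At a nominal p-value below 0.05 in limma 8 of the 38 genes were lower and 1 was higher, which is 21.1% and 2.63% of them beside 4.99% and 2.47% of all genes tested. Among the lower genes, Cyp26a1 passed the minimum only through its level in the normal testes. The median log2 fold change of the 38 genes was -0.049. Some genes, such as Dhrs3 and Cyp26a1, belong to more than one role and are counted under each. The groups were apart with the diabetic testes lower for 9 of the 38 genes and higher for 5, which is 23.7% and 13.2% of them beside 8.42% and 4.56% of all genes tested. The list was chosen with earlier results of these data known, so these shares cannot show an excess over all genes. The shares of all genes also stand beside the counts by role and by cell type below. Whether the set and this list differed was not tested.

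**Figure D3:**
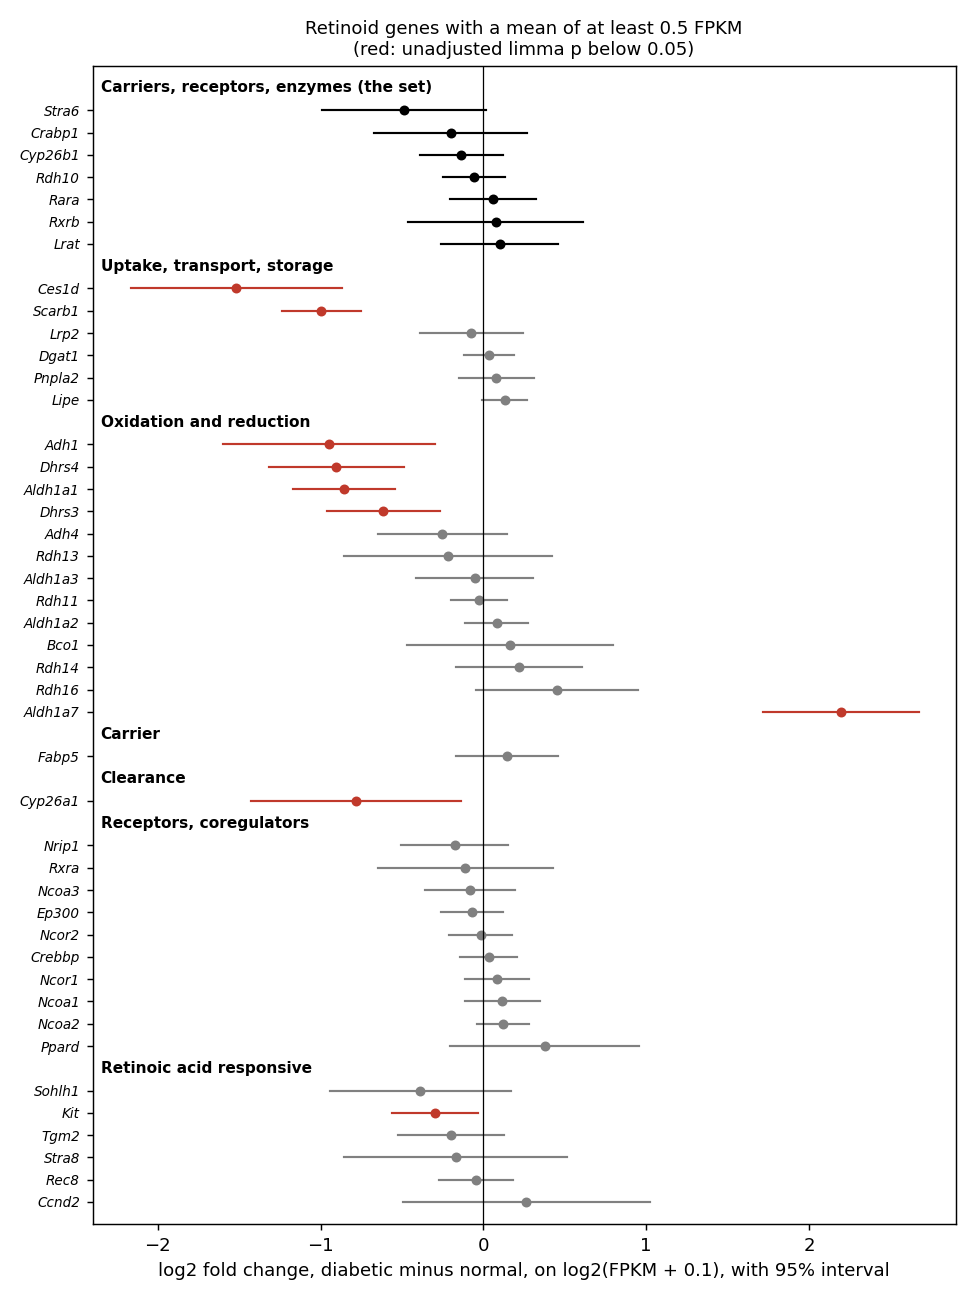
Log2 fold change (diabetic minus normal, on log2(FPKM + 0.1)) with its 95% interval from limma for the 7 tested rows of the set and other tested genes of the pathway list, by role. Genes of several roles are drawn once, and genes with a nominal p-value below 0.05 are red: 8 lie left of 0, Aldh1a7 lies right of it, and no interval of the set leaves out 0.

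Of the genes of uptake, transport and ester handling, 2 of 7 were lower. Scarb1, the receptor for high-density lipoprotein that also takes up carotenoids, was at 4.16 ± 0.373 FPKM under diabetes and 8.38 ± 0.366 FPKM in the normal testes (SD, n = 3 each; limma, adjusted p = 0.0530). Ces1d, a carboxylesterase of the kind that can split retinyl esters, was at 29.7 ± 11.9 FPKM and 81.0 ± 10.2 FPKM (SD, n = 3 each; limma, adjusted p = 0.267). The most abundant gene of this role was Lipe, at a mean of 84.7 FPKM under diabetes and 77.3 FPKM in the normal testes, and its groups did not overlap (adjusted p = 0.690 from limma).

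Among the oxidising and reducing enzymes, 4 of 13 were lower and 1 was higher. Dhrs3, which reduces retinaldehyde back to retinol and so opposes RDH10, was at 2.33, 2.32 and 2.38 FPKM under diabetes and 3.14, 4.32 and 3.55 FPKM in the normal testes. That was a log2 fold change of -0.61 (limma, adjusted p = 0.414), beside -0.059 for Rdh10. As for Rdh10 and Stra6, the 3 diabetic testes were close together and the normal testes spread out, with normal replicate 2 the highest. Dhrs4, a related reductase, and Adh1, an alcohol dehydrogenase that accepts retinol, had log2 fold changes of -0.90 and -0.95 (adjusted p = 0.280 and 0.506 from limma). Of the aldehyde dehydrogenases, Aldh1a1 had a log2 fold change of -0.86 and its paralog Aldh1a7 one of 2.20. Of these 2 genes, Aldh1a7 passed the adjusted threshold (adjusted p = 0.190 and 0.0415 from limma). In a fit restricted to protein-coding genes, which gave no value for Aldh1a7, Aldh1a1 passed it (adjusted p = 0.0367 from limma). With a pseudocount of 1 FPKM the log2 fold change of Aldh1a7 was 1.40. With any 1 rat left out except normal replicate 2, Aldh1a7 had an adjusted p from limma above 0.05, at 0.0555 to 0.164. Fragments shared by these paralogs could have been counted for either, and Aldh1a2, the most abundant of them, was at 67.1 to 79.8 FPKM under diabetes and 64.0 to 72.2 FPKM in the normal testes. Rdh11 had the highest level of this role, at 79.8 and 81.3 FPKM as means of the diabetic and normal testes.

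**Figure D4:**
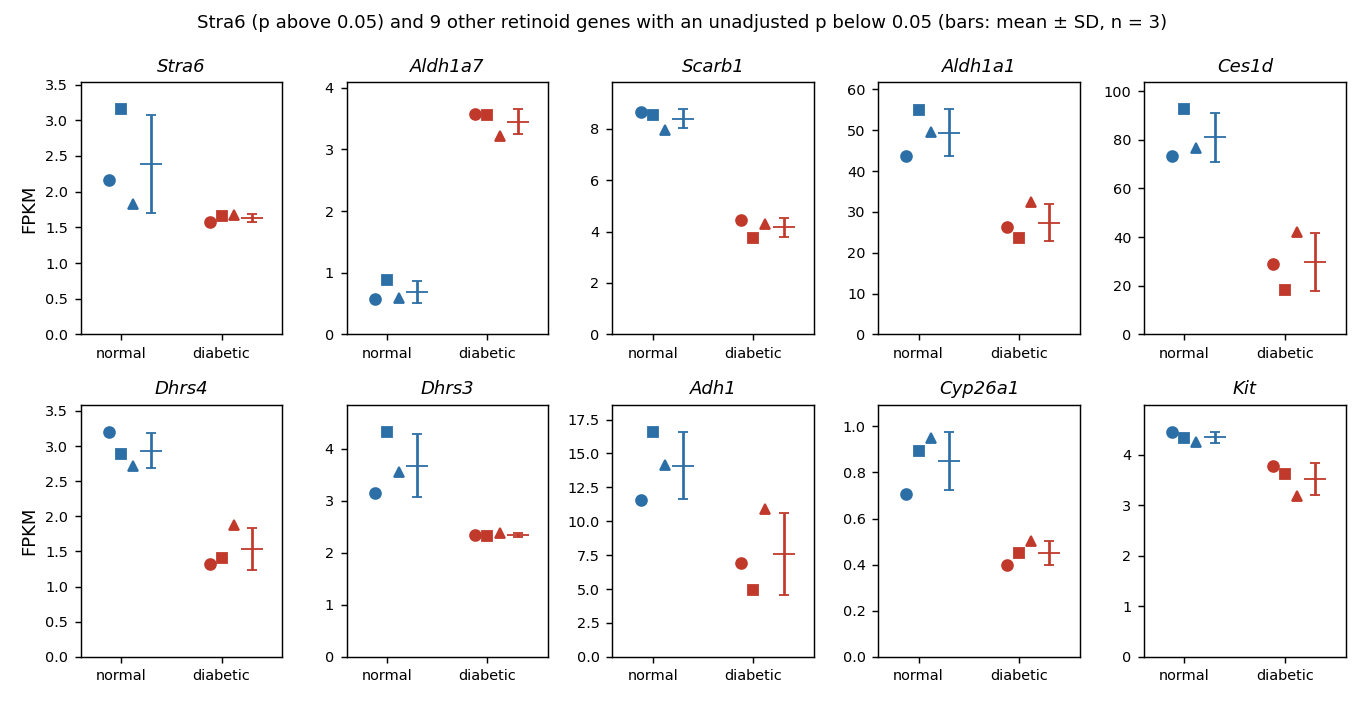
FPKM of Stra6, whose nominal p-value was above 0.05, and of the 9 other retinoid genes with a nominal p-value below 0.05 in each rat (circle, square and triangle for replicates 1, 2 and 3), with mean ± SD beside them and axes that start at 0. In each panel the diabetic testes lie outside the range of the normal testes; only Aldh1a7 is higher in the diabetic testes.

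The alternative carrier Fabp5, at 16.5 and 15.0 FPKM as group means, had overlapping groups (adjusted p = 0.882 from limma). Of the 10 receptor and coregulator genes tested none passed a nominal p-value below 0.05 in limma, as for Rara and Rxrb, and their log2 fold changes lay between -0.18 and 0.38. Ncoa2, a coactivator, was the most abundant of them at 33.5 and 30.8 FPKM as means of the diabetic and normal testes, with overlapping groups (adjusted p = 0.778 from limma). Of the genes known to respond to retinoic acid, 3 of 10 were lower and 0 were higher, beside 4.99% and 2.47% of all genes tested. The lower genes were Cyp26a1 and Dhrs3, both counted above, and Kit, the stem cell factor receptor of differentiating spermatogonia. Cyp26a1 passed the minimum only through its level in the normal testes. Kit had a log2 fold change of -0.30 (limma, adjusted p = 0.635). Its place in this count was lost without any 1 rat other than diabetic replicate 1, with a nominal p-value from limma of 0.0536 to 0.0920. That of Cyp26a1 was lost without diabetic replicate 1, normal replicate 2 or normal replicate 3, with a nominal p-value from limma of 0.0573 to 0.0741, and its log2 fold change was -0.35 with a pseudocount of 1 FPKM. Dhrs3 kept a nominal p-value below 0.05 under each alternative. Stra8, the gatekeeper of meiosis that retinoic acid induces, was at 4.65, 3.22 and 7.53 FPKM in the diabetic testes and at 4.95, 6.56 and 4.99 FPKM in the normal testes, and both the highest and the lowest rat were diabetic. Rec8, a meiotic cohesin, was the most abundant of this list, at 42.9 and 44.5 FPKM (adjusted p = 0.957 from limma).

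The labelled tissue was compared with marker genes. Although the protocol text in the labels mentions an adipose type, the summed level of 4 adipocyte genes was at most 9.0 FPKM, that of 6 spermatid genes was at least 7503 FPKM, and 5 epididymal genes summed to at most 0.175 FPKM, with Lcn6 and Lcn8 at 0. Leydig cell genes moved with the diabetic group: 6 of 7 were lower at a nominal p-value below 0.05, and their sum was 31.2 to 60.1 FPKM under diabetes and 87.3 to 121 FPKM in the normal testes. Macrophage genes were lower for 3 of 6, with sums of 29.2 to 34.1 and 36.6 to 41.2 FPKM. Of the lower genes, Cd68, at a diabetic mean of 0.493 FPKM, passed the minimum only through its level in the normal testes. Mrc1 made up most of the macrophage sums, at 20.8 and 21.6 FPKM as means of the diabetic and normal testes. Of the Sertoli cell genes 1 of 11 was lower, with sums of 426 to 450 FPKM under diabetes and 378 to 458 FPKM in the normal testes. Clu made up most of the Sertoli sums, at 262 and 245 FPKM as means of the diabetic and normal testes. Of the spermatogonial genes 1 of 7 was lower and 1 was higher, with sums of 58.7 to 70.4 and 55.1 to 58.9 FPKM. Most of these sums was Uchl1, the higher gene, at 47.5 and 37.3 FPKM as means of the diabetic and normal testes. The lower gene was Kit, counted above, and the median log2 fold change of the 7 genes was -0.17. None of the 5 peritubular, 8 spermatocyte, 6 spermatid, 2 endothelial and 1 blood gene tested passed, and 1 of the 2 adipocyte genes tested was lower. The part of these markers in the values of Stra6, Cyp26a1, Dhrs3, Scarb1, Ces1d, Adh1, Dhrs4 and Aldh1a1 was not tested.

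For the 3 tested genes of the set with the largest absolute log2 fold changes, the genes most alike over the 6 rats were looked up among 17600 genes with a symbol, by Pearson's r of log2(FPKM + 0.1). Nearest to Stra6 were Clic1 (r = 0.994), Ifitm2 (r = 0.988) and Mrpl16 (r = 0.986). For Crabp1 they were Etv6 (r = 0.993), Coq5 (r = 0.993) and Psmb10 (r = 0.991), and for Cyp26b1 they were AABR07026503.2 (r = 0.997), Ggt6 (r = 0.991) and Ilk (r = 0.989). These are the highest of many correlations over only 6 points that share the libraries and the groups, and they are given as a description.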

How the data were processed

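RNA-Seq of testicular tissue from 3 diabetic and 3 normal rats was used, with groups and replicate numbers taken from the sample titles. The deposited values are FPKM per gene as the authors calculated them after FastQC, comparison with rRNA by BWA, alignment with STAR and assembly with StringTie. Tool versions and genome build are not given in the sources used here. The study screened transcripts with DESeq2, which needs counts and was not run here.

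FPKM were transformed to log2(FPKM + 0.1), and all genes averaging 0.5 FPKM or more were fitted with limma 3.58.1 in R 4.3.3 (eBayes with a mean-variance trend, two-sided, Benjamini-Hochberg over all 20338 genes). Genes below that mean were read from the same fit without a minimum. Intervals cover 95%. Single genes and shares were compared with exact permutation tests (scipy 1.17.1, Python 3.11.15). The steps were tested on simulated data.

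The members and lists were chosen with earlier results of these data known. All 9 genes of the set were named. Of the other pathway list, the genes passing a nominal p-value of 0.05 were named, together with the gene of highest level in each role, as were the 3 genes most alike to each of the 3 members with the largest fold changes. Stra8 and Aldh1a2 fall outside these rules and were chosen after their values were seen. One gene counted in the pathway list is not reported here by name. Marker lists covered Sertoli, Leydig, peritubular, endothelial, macrophage, adipocyte, epididymal, blood and germ cells. Both groups use replicate numbers 1 to 3 for different animals, and no block entered the main comparison. The alternatives are given in the closing section. Promoter windows came from RefSeq (GRCr8).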

Additional observations from a re-analysis of the deposited data

How the results depend on the processing

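The alternatives were a pseudocount of 1 or 0.01 FPKM, no minimum or one of 1 FPKM, values scaled to TPM or by median ratios, a limma fit without its trend or made robust, replicate number entered as a block, a restriction to protein-coding genes, rows of 1 symbol summed, and each rat left out. A minimum of 1 FPKM gives no value for Rarg and Crabp2. No member passed the criterion or an adjusted p-value below 0.05 under any of these. The count of members with a nominal p-value below 0.05 was 0. It was 1, Stra6, with TPM and, separately, with protein-coding genes alone (limma, adjusted p = 0.665 and 0.492), and 0 to 2 with each rat left out, the 2 being Stra6 and Cyp26b1 without normal replicate 3. The cause was not tested. The log2 fold change of Stra6 kept its sign, at -0.65 to -0.27 with each rat left out and -0.51 to -0.34 under the others. With each rat left out the ranges crossed 0 for Lrat (-0.0039 to 0.21), Rdh10 (-0.13 to 0.0021), Rara (-0.045 to 0.14), Rxrb (-0.14 to 0.24), the first row of Crabp2 (-0.60 to 0.30), Rdh11 (-0.086 to 0.014), Rec8 (-0.15 to 0.018) and the share of Crabp1 (-8.72 to 3.21 percentage points). Summing the Crabp2 rows gave 0.0039. The share of Cyp26b1 was 2.09 to 4.48 percentage points higher in the diabetic rats, that of Rara 0.671 to 1.72 and that of Rxrb 1.30 to 4.15. The count of other pathway genes was 9, and 7 to 11 under the alternatives. The adjusted p-value of Aldh1a7 ran from 0.0268 to 0.186 where it had a value, and was above 0.05 without a minimum, with the block and without 5 of the 6 rats in turn, all but normal replicate 2. That of Scarb1 ran from 0.0104 to 0.243. For Scarb1 it was below 0.05 with a pseudocount or a minimum of 1 FPKM, with TPM and in the robust fit. The same held for Scarb1 with protein-coding genes alone and with rows of 1 symbol summed. The adjusted p-value of Aldh1a1 ran from 0.0367 to 0.50, below 0.05 with protein-coding genes alone.

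Deviations of same-numbered rats from their group means correlated at 0.106, 0.0153 and 0.0979. Those of differently numbered rats correlated at -0.126 to 0.0318. All these values are low, and they do not settle whether the numbers pair the rats. With the replicate number as a block, 0 members had a nominal p-value below 0.05, and 10 other pathway genes did. The log2 fold changes were those without the block (Stra6 -0.49, Lrat 0.10, Rdh10 -0.059, Crabp1 -0.20, Cyp26b1 -0.13, Rara 0.059, Rxrb 0.076), and no adjusted p-value of a member was below 0.05. Read depth is unknown, and at levels under 0.5 FPKM the intervals of Crabp2 and Rarg are wide.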
